A study of Mus musculus with 6 samples.

Results

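The genes described here encode the proteins of the mitochondrial ribosome, and they were taken from the deposited count table of a lenvatinib experiment by symbol, as the rows whose name is Mrpl or Mrps, a number and at most 1 further letter. Of the 56792 rows of the table, 78 met this rule, 49 named for the large subunit (Mrpl) and 29 for the small subunit (Mrps). Pseudogenes of these names were not taken. The cells were C2C12, an established mouse myoblast line whose cells leave the cell cycle and fuse into myotubes when serum is lowered. All 6 libraries came from cells labelled wild type that had differentiated for 4 days in medium with 2% horse serum, 3 of them without lenvatinib and 3 with 1 µM of it. Lenvatinib, a small-molecule cancer medicine, blocks receptor tyrosine kinases, among them the receptors for vascular endothelial and fibroblast growth factors. Each group therefore stands for 1 cell line at 1 dose and time. It is not stated whether the solvent was added to the untreated cells. No label says that the libraries of a group came from separate cultures, so the p-values reflect the spread among these libraries alone, and that spread may be technical.

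The mitochondrial ribosome translates the messenger RNAs of the mitochondrial genome, which encode core subunits of the respiratory chain and of ATP synthase. Its ribosomal RNAs come from mitochondrial DNA, but its proteins are encoded in the nucleus, made in the cytosol and imported. Some of the proteins descend from those of bacterial ribosomes, and others occur in mitochondria alone. Muscle depends strongly on oxidative phosphorylation, and inherited defects of several of these proteins cause combined respiratory chain deficiencies.

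Expression is given in CPM, the counts per 1000000 counts of the library after TMM scaling, and group values are means ± SD (n = 3 libraries). Fold changes are on the log2 scale, lenvatinib over untreated, from the quasi-likelihood fit of edgeR. The SE was computed as the absolute log2 fold change over the square root of the F statistic of its test. The 95% interval was derived from this SE with the t distribution. The p-values were adjusted by the Benjamini-Hochberg method across the 14989 rows that had enough counts, and a gene is said to have risen or fallen where that value was under 0.05. Library totals ran from 24566768 to 32406563 counts. Myog, a transcription factor of terminal muscle differentiation, had 21985 to 33313 counts per library. By contrast, Cdh5, an endothelial cadherin, had 2 to 5 counts and Adgre1, a macrophage receptor, had 0 in every library. Cd14, another listed macrophage gene, had 84 to 148 counts. In bulk RNA, fewer cells of a type and less RNA per cell cannot be told apart.

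Transcripts of the mitochondrial ribosome differed little between the groups. Of the 78 genes 76 had enough counts for a test, and 6 of these rose and 1 fell with lenvatinib, 9.21% in all. Over all tested rows 28.2% changed, 13.3% higher and 14.9% lower. Mrpl42, Mrps34, Mrps26, Mrps36, Mrps7 and Mrpl4 rose, with log2 fold changes of 0.13 to 0.21, and Mrpl52 fell by 0.16 on the same scale. The median log2 fold change of the 76 genes was 0.04, beside 0.003 over all tested rows, and 49 of them had a positive value (64.5%, against 50.7% of all tested rows). At an unadjusted p under 0.05, 17 of the 76 passed, a smaller share than the 5562 of all 14989 tested rows.

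Muscle markers moved with the groups too. Of 7 listed markers 5 rose with lenvatinib, Myog among them (0.27, adjusted p = 6.51e-12), Des, the muscle intermediate filament, fell (-0.19, adjusted p = 1.02e-08) and Ttn did not pass. Their summed level was 12827 to 13672 CPM in the untreated and 13051 to 13813 CPM in the lenvatinib libraries, so the groups overlapped in the sum. Gene by gene, every lenvatinib library lay above every untreated one in the 5 that rose and below in Des. Ttn ran from 1357 to 2089 CPM in the untreated libraries alone. Markers of other cell types were low: the 4 adipocyte genes summed to 23.0 to 25.3 CPM without and 26.2 to 30.8 CPM with lenvatinib, nearly all of it Lpl, with Plin1 at 0 throughout and Adipoq at 0 in all but 1 library. Lpl rose with lenvatinib (0.22, adjusted p = 0.00666). The 4 macrophage genes summed to 5.37 to 6.19 and 3.93 to 4.40 CPM, most of it Cd14, which fell (-0.54, adjusted p = 0.00148). Cd68, the other macrophage gene tested, did not pass (adjusted p = 0.791). The 3 endothelial genes summed to at most 0.245 CPM and the neuron genes Rbfox3 and Snap25 to at most 0.0409 CPM. The part of a difference in muscle differentiation in the results below was not tested.

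Within these libraries the measurements were precise enough to bound the change of single genes. Like the p-values, the intervals rest on the spread among these libraries, which may be technical. For 74 of the 76 genes (97.4%) the 95% interval of the log2 fold change lay wholly within ±0.32, which is a 25% rise or the matching fall; for all tested rows, whose median level was lower (21.1 against 29.9 CPM), this share was 55.9%. Among the 6165 tested rows with a mean of 9.69 to 69.6 CPM, the range of the members other than Mrpl46, it was 78.1%. The interval narrowly passed the bound (0.3219) in Mrps26, whose upper end was 0.3220. It also passed in Mrpl46, a large subunit gene with few counts whose interval ran from -0.05 to 0.87. In Mrpl34 the lower end, -0.3212, lay just within the bound. A gene that missed the threshold is thus not shown to be equal in the groups, but for most members a change beyond this bound lies outside the interval.

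**Figure D1:**
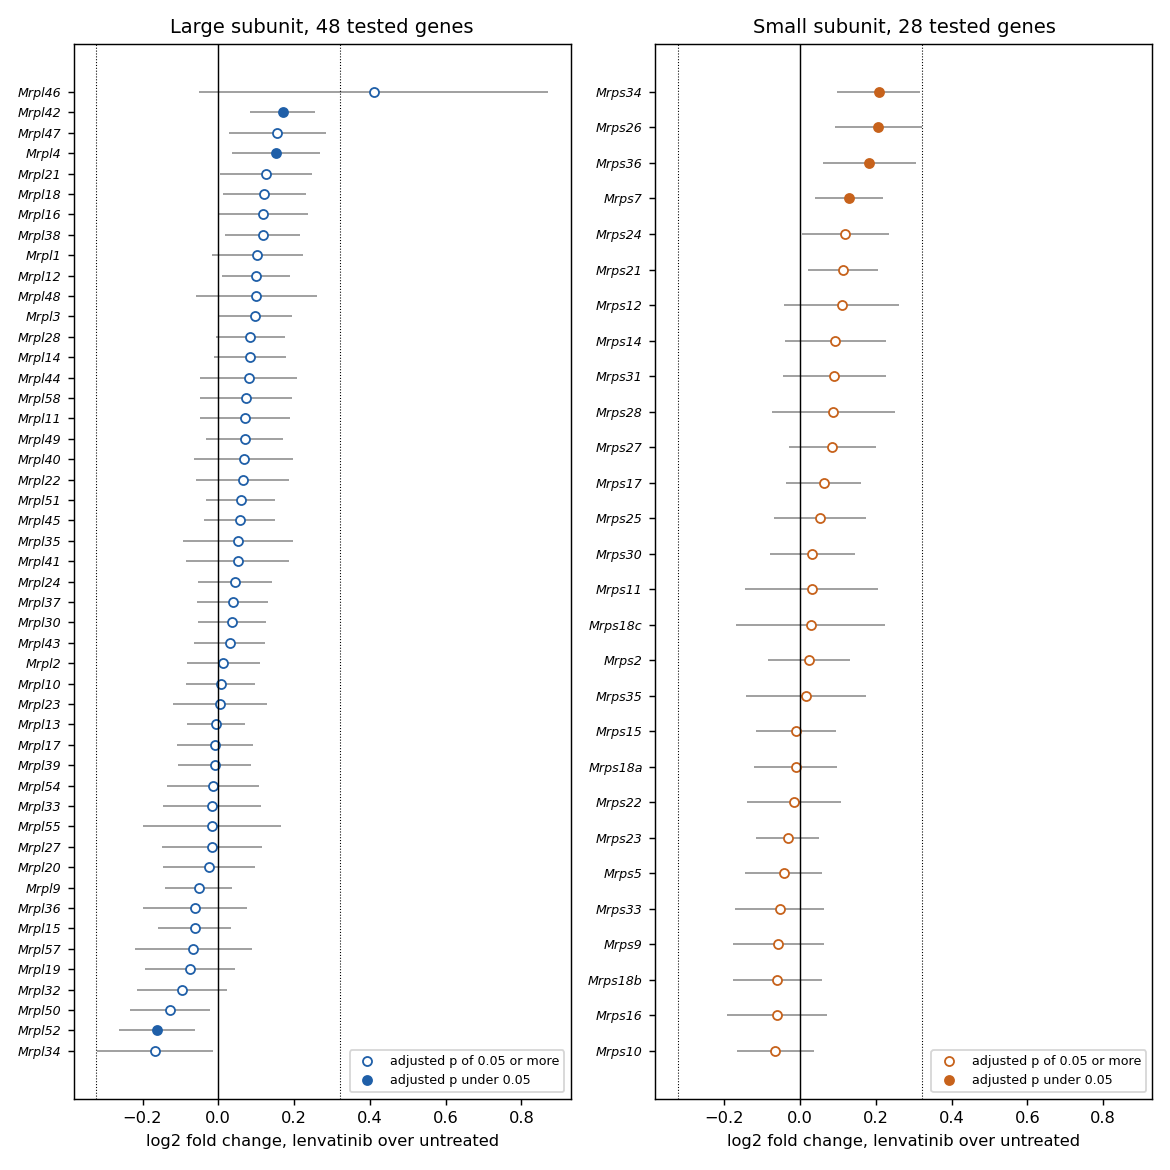
Log2 fold change of each tested gene of the large subunit (48, left) and the small subunit (28, right), lenvatinib over untreated, with its 95% interval (grey lines); filled points have an adjusted p under 0.05 and dotted lines mark ±0.32, a 25% rise and the matching fall. The points lie close to 0 in both panels, with 3 filled points in the large and 4 in the small subunit, and the wide interval at the top left is that of Mrpl46.

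Sequence upstream of the start site is shown for 3 of the 7 genes that changed, the 2 that rose with a promoter entry and the smallest p, and the one that fell, because their start regions differ in the motifs they hold. Each stretch gives the 150 bases before the start annotated by RefSeq and the first 14 bases of the transcript, in the direction of the gene, on GRCm38.p6. Capitals mark letters that match, on either strand, the motif of nuclear respiratory factor 1 (NRF1, GCGC, any base, then TGCGC), an ETS-type motif of the kind bound by GABP (CCGGAAG), the core of YY1 (AAGATGGC) or a GC box (GGGCGG). Mrpl42 (chr10:95501936-95502099, minus strand), Mrps26 (chr2:130563607-130563770, plus strand) and Mrpl52 (chr14:54426759-54426922, plus strand) read as follows.
Mrpl42: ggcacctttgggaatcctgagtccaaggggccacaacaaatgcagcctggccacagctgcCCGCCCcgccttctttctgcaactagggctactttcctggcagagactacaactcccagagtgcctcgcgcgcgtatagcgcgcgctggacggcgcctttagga
Mrps26: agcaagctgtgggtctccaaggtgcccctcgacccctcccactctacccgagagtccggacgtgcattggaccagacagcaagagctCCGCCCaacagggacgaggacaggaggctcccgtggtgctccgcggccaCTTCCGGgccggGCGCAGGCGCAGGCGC
Mrpl52: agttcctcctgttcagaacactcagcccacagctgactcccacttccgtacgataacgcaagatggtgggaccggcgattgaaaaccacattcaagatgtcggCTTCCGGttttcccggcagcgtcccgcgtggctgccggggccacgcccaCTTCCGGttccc
In Mrpl42 the capitals are a GC box, and a YY1 core lies 28 bases past the start, beyond the stretch shown. In Mrps26 they are a GC box, an ETS-type motif and 2 overlapping NRF1 motifs at the start site. In Mrpl52 they are 2 ETS-type motifs. A match is a description of letters and shows no binding.

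Of the large subunit, 48 of 49 genes were tested, and 2 rose and 1 fell (6.25%), where 13.3% of all tested rows rose and 14.9% fell. Mrpl42, a protein of the large subunit that occurs in mitochondria alone (chromosome 10, 95316667 to 95337802, in the deposited table), was at 53.6, 56.4 and 59.5 CPM in the untreated and at 64.8, 63.5 and 62.4 CPM in the lenvatinib libraries. Every lenvatinib library lay above every untreated one. The mean rose from 56.5 ± 2.95 to 63.6 ± 1.22 CPM, 1.12-fold higher (log2 fold change 0.17 ± 0.04, adjusted p = 0.00159).

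Mrpl4, a protein with a bacterial counterpart that lines the tunnel through which the new chain leaves the ribosome (chromosome 9, 20914034 to 20920135), was at 30.3, 26.9 and 26.2 CPM without and at 30.4, 31.2 and 31.0 CPM with lenvatinib. The first untreated library lay close to the treated ones, and the groups did not overlap. The rise from 27.8 ± 2.16 to 30.9 ± 0.414 CPM (0.15 ± 0.06) passed narrowly (adjusted p = 0.0434). It no longer passed with DESeq2 (adjusted p = 0.123) or limma-voom (adjusted p = 0.0515), and leaving out any library but the first untreated one gave an adjusted p from 0.0591 to 0.222.

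Mrpl52 (chromosome 14, 54664366 to 54667213), also found in mitochondria alone, was the gene that fell. It was at 41.7, 42.8 and 44.2 CPM in the untreated and at 36.7, 37.7 and 40.4 CPM in the lenvatinib libraries, all of the latter below all of the former. The mean fell from 42.9 ± 1.25 to 38.3 ± 1.91 CPM (-0.16 ± 0.05, adjusted p = 0.0108), and without the third untreated or the first lenvatinib library the adjusted p was 0.0671 and 0.0737. Mrpl34, with the steepest negative value (-0.17 ± 0.08), and Mrpl50 (-0.13 ± 0.05) did not pass (adjusted p = 0.0964 and 0.067), although every lenvatinib library was below every untreated one in both; they are named after their values were seen. Mrpl50 passed without the first lenvatinib library (adjusted p = 0.0353).

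Of the small subunit, 28 of 29 genes were tested, and 4 rose and none fell (14.3%). Over all tested rows 13.3% rose and 14.9% fell. In the small subunit 6 genes had an unadjusted p under 0.05, beside 5562 of all 14989 tested rows, and DESeq2 also called none lower. Mrps34, whose defects in people cause a mitochondrial encephalopathy (chromosome 17, 25114090 to 25116476), was at 33.7, 35.2 and 30.9 CPM without and at 36.8, 40.5 and 37.9 CPM with lenvatinib. The groups did not overlap, and the mean rose from 33.3 ± 2.2 to 38.4 ± 1.94 CPM (0.21 ± 0.05, adjusted p = 0.00292). In the GENCODE M21 annotation 77.8% of the exonic bases of Mrps34 are also exonic in Mapk8ip3 on the other strand, and the row of Mapk8ip3 rose too (0.11, adjusted p = 0.0174). No source used here states whether counting used the strand, so reads of these genes cannot be told apart. In the deposited table the span of Mrps34 also shares 1003 bases with Nme3 on the same strand, whose row held 0 counts in every library. The part of this overlap in the counts of Mrps34 was not tested.

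Mrps26 (chromosome 2, 130405662 to 130410615), a small subunit protein without a bacterial counterpart, was at 29.6, 29.0 and 25.8 CPM in the untreated and at 32.3, 32.0 and 33.0 CPM in the lenvatinib libraries. The third untreated library was the lowest, and the groups did not overlap. The mean rose from 28.2 ± 2.04 to 32.4 ± 0.545 CPM (0.21 ± 0.06, adjusted p = 0.00447); without the third untreated library the adjusted p was 0.0744 (0.15).

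Mrps7 (chromosome 11, 115494751 to 115498862), whose bacterial counterpart organises the head of the small subunit, was at 45.2, 45.6 and 44.1 CPM without and at 50.2, 48.4 and 48.8 CPM with lenvatinib. Each treated library lay above each untreated one, and the rise was 1.09-fold (0.13 ± 0.04, adjusted p = 0.0261). The call was lost with DESeq2 (adjusted p = 0.0807) and without the third untreated, the first lenvatinib or the third lenvatinib library (adjusted p from 0.0515 to 0.102).

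Mrps36 carries the symbol of a small subunit protein but is now known as a component of the 2-oxoglutarate dehydrogenase complex of the citric acid cycle. Its row (chromosome 13, 100872463 to 100881167) was at 25.6, 24.2 and 23.7 CPM without and at 28.9, 25.4 and 29.0 CPM with lenvatinib, so the groups overlapped by a single library. The rise from 24.5 ± 0.969 to 27.8 ± 2.02 CPM (0.18 ± 0.06, adjusted p = 0.0198) was lost with DESeq2 (adjusted p = 0.0691). It was also lost without the second or the third untreated or the first or the third lenvatinib library (adjusted p from 0.059 to 0.125). Its pseudogene rows Mrps36-ps1 and Mrps36-ps2 held 19 to 51 counts per library, against 618 to 939 for Mrps36, and counting can split reads between such copies.

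**Figure D2:**
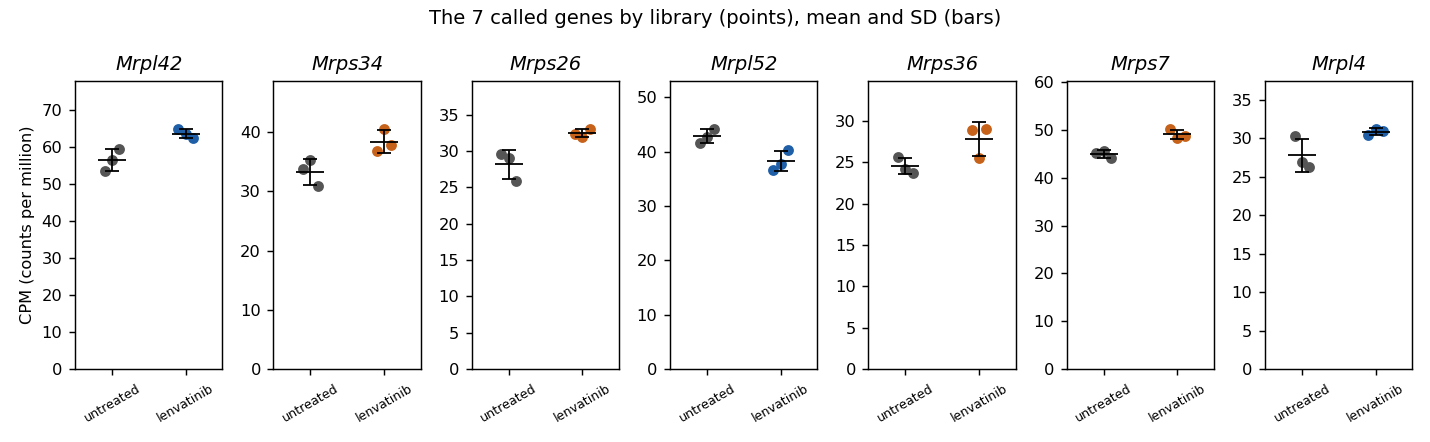
CPM of the 7 genes that changed, ordered by p, in each untreated (grey) and lenvatinib library (blue for the large and orange for the small subunit), with the mean and SD as black bars. Mrpl52 is lower and the others higher with lenvatinib, and only in Mrps36 does a lenvatinib library (25.4 CPM) fall within the untreated range.

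The subunits were then set side by side. The median log2 fold change was 0.05 over the 48 large subunit genes and 0.03 over the 28 small subunit genes, and the middle 50% of the values ran from -0.02 to 0.09 and from -0.02 to 0.10. Positive values were found in 31 of 48 and in 18 of 28 (64.6 and 64.3%). The groups of libraries did not overlap in 9 of 48 large and 7 of 28 small subunit genes, 16 of 76 together, where 40.1% of all tested rows did not overlap. In 11 of the 76 every lenvatinib library was above every untreated one (19.6% of all tested rows), and in 5 every one was below (20.5%). Members are not replicates of a condition, so the difference between the subunits was described and not tested.

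The subunit symbols follow older assignments. Structures of the mammalian mitochondrial ribosome place the proteins of Mrps30 and Mrps18a in the large subunit. With these genes moved and Mrps36 left out, 2 of 50 large subunit genes rose and 1 fell, with a median of 0.04, and 3 of 25 small subunit genes rose and none fell, with a median of 0.03. The shares called were 6% and 12%, where 28.2% of all tested rows changed. Mrps30 was at 31.7 ± 0.795 and 32.5 ± 2.28 CPM and Mrps18a at 32.5 ± 1.55 and 32.3 ± 0.896 CPM without and with lenvatinib (adjusted p = 0.719 and 0.91).

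By origin, 1 of 30 large subunit genes with a bacterial counterpart rose, and 1 of 18 tested genes of mitochondria-specific large subunit proteins rose and 1 fell. In the small subunit 1 of 15 tested genes with a bacterial counterpart and 2 of 10 mitochondria-specific ones rose. The medians were 0.025 and 0.058 in the large and 0.031 and 0.034 in the small subunit. These shares rest on 1 or 2 genes each, and none was above the 28.2% of all tested rows.

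By position in the ribosome, no gene of the stalk, the exit tunnel rim or the central protuberance passed. An unadjusted p under 0.05 in edgeR was found in 1 of 3, 1 of 6 and 2 of 7. That held for 5562 of all 14989 tested rows. Mrpl10 and Mrpl12 form the stalk that recruits translation factors, together with Mrpl11 at its base. Mrpl10 was at 48.1, 47.0 and 45.5 CPM without and 46.1, 45.9 and 48.9 CPM with lenvatinib, and its interval ran from -0.09 to 0.10 (adjusted p = 0.944). Mrpl12 was at 52.8, 48.3 and 49.9 CPM and at 55.7, 54.2 and 52.3 CPM (0.10 ± 0.04, adjusted p = 0.0881), with 1 lenvatinib library inside the untreated range; it passed without the first untreated library (adjusted p = 0.0364). Mrpl11 was at 25.2 ± 0.907 and 26.4 ± 0.786 CPM (adjusted p = 0.405).

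Of the 6 exit tunnel rim genes, Mrpl47 had the smallest p, at 19.5 ± 0.37 and 21.7 ± 0.315 CPM (0.16 ± 0.06, adjusted p = 0.059), with no overlap between the groups. With upper-quartile scaling Mrpl47 passed (adjusted p = 0.0478). In GENCODE M21 24.2% of its exonic bases are also exonic in the complex I gene Ndufb5 on the other strand, so reads there cannot be told apart. Mrpl45, which ties the ribosome to the inner membrane, was at 44.9 and 46.8 CPM (adjusted p = 0.411), and Mrpl22 at 22.8 and 23.7 CPM (adjusted p = 0.476). Of the 7 central protuberance genes the smallest p was that of Mrpl38, at 42.5 ± 2.37 and 46.1 ± 1.91 CPM (0.12 ± 0.05, adjusted p = 0.0684), followed by Mrpl18 (0.12 ± 0.05, adjusted p = 0.0927). Both passed without the first untreated library (adjusted p = 0.0414 and 0.042), and Mrpl38 without the second lenvatinib library (0.0434). The medians were 0.05 over the tunnel rim and 0.10 over the protuberance.

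The paralogs Mrps18a, Mrps18b and Mrps18c, relatives of a single bacterial protein, did not pass either. Mrps18b was at 29.4 ± 1.82 and 28.2 ± 0.942 CPM (-0.06 ± 0.06, adjusted p = 0.49). Mrps18c, the least abundant tested small subunit gene in CPM, was at 9.51, 9.68 and 9.70 CPM without and at 9.05, 8.80 and 11.4 CPM with lenvatinib, where the third lenvatinib library alone lay above the untreated ones (adjusted p = 0.873).

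Mrps6, Mrpl53 and Mrpl46 stood apart from the rest by their low counts. Mrps6 had 1 count in each of 3 libraries and 0 in the others, Mrpl53 had 0 in every library, and neither was tested; 3 counts, the limit that a count of 0 allows, equal 0.0927 to 0.123 CPM in these libraries, for counting error only. Mrpl46 had 30 to 69 counts per library, at 1.37 ± 0.305 and 1.79 ± 0.313 CPM (0.41 ± 0.23, adjusted p = 0.19), while the other tested members had 215 to 2196 counts. In the deposited table the span of Mrps6 is shared with Slc5a3 and with Gm49711 on the same strand, the span of Mrpl53 lies inside that of Gm42688 on the same strand, and Mrpl46 overlaps Mrps11 on the other strand by 413 bases. In GENCODE M21 19.9% of the exonic bases of Mrps6, 88.0% of Mrpl53 and 12.2% of Mrpl46 are exonic in another gene. The part of these overlaps in the low counts was not tested, and nothing is drawn from these rows about the presence of the transcripts.

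Levels can be compared between genes per length only. By CPM per kilobase of the deposited feature length, Mrpl2 (37.5), Mrpl52 (36.6) and Mrpl28 (35.5) were the most abundant large subunit genes and Mrps21 (45.1), Mrps23 (34.6) and Mrps7 (22.2) the most abundant small subunit genes. The order depends on the length used: per kilobase of the principal transcript of GENCODE M21, Mrpl52 (97.1) and Mrpl42 (90.1) came first in the large subunit, while Mrps21 and Mrps23 kept the first places in the small. Mrpl2 was at 43.8 ± 2.19 and 44.2 ± 1.44 CPM and Mrpl28 at 47.6 ± 0.864 and 50.4 ± 2.36 CPM (adjusted p = 0.879 and 0.172). Mrps21 was at 45.9, 45.0 and 45.8 CPM without and 49.9, 46.3 and 51.3 CPM with lenvatinib, with no overlap but short of the threshold (0.11 ± 0.05, adjusted p = 0.0622). It passed with upper-quartile scaling (adjusted p = 0.0488) and without the second lenvatinib library (0.0178). Mrps23 was at 54.6 ± 0.842 and 53.4 ± 0.2 CPM (adjusted p = 0.611). Over the 76 tested genes mean levels ran from 1.58 to 69.6 CPM with a median of 29.9 CPM.

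Summed over a subunit, small differences became visible library by library. The 49 large subunit rows together held 1575, 1577 and 1573 CPM in the untreated and 1619, 1618 and 1602 CPM in the lenvatinib libraries. The small subunit rows held 793, 793 and 784 CPM and 817, 816 and 812 CPM. Both sums were higher in every lenvatinib library than in any untreated one, by 2.42% and 3.17% of the mean. Their ratio, large over small, was 1.99 ± 0.0107 without and 1.98 ± 0.00619 with lenvatinib. With no scaling factor, with DESeq2 size factors or with upper-quartile factors, the 2 sums also lay above in every lenvatinib library, by 2.38 to 2.90% and by 3.13 to 3.66%. No p is given for a sum over chosen genes.

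The same sums were taken for the cytosolic ribosomal proteins and for subunits of complex I, a respiratory chain complex that contains products of mitochondrial translation. Cytosolic ribosomal protein rows held 22997 ± 124 CPM without and 21717 ± 129 CPM with lenvatinib, a difference of -5.57%, and complex I rows 2643 ± 11.9 and 2776 ± 24.6 CPM, a difference of 5.03%. Of 73 tested cytosolic ribosomal protein genes 33 fell and 1 rose (median -0.07), and of 37 complex I genes 12 rose and 1 fell (median 0.08). The median of the mitochondrial ribosome (0.04) and its sum lay between those of the other sets, while the share called (9.21%) was below both (46.6% and 35.1%); the difference between the sets was not tested. Median levels differed, at 297 CPM for the cytosolic, 58.6 for the complex I and 29.9 for the mitochondrial set, and so did the median SE, at 0.03, 0.04 and 0.06, so equal changes would pass the threshold at different rates.

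**Figure D3:**
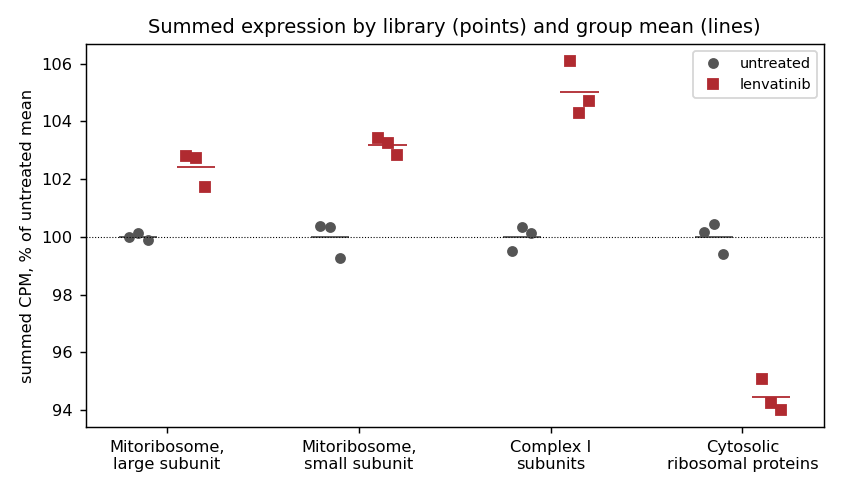
Summed CPM per library as a percentage of the untreated mean for 4 gene sets, with untreated libraries as grey circles, lenvatinib libraries as red squares and group means as lines. The mitochondrial ribosome sums lie 2.42% and 3.17% above the untreated mean, below the 5.03% of complex I, while the cytosolic ribosomal proteins lie at -5.57% from it.

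**Figure D4:**
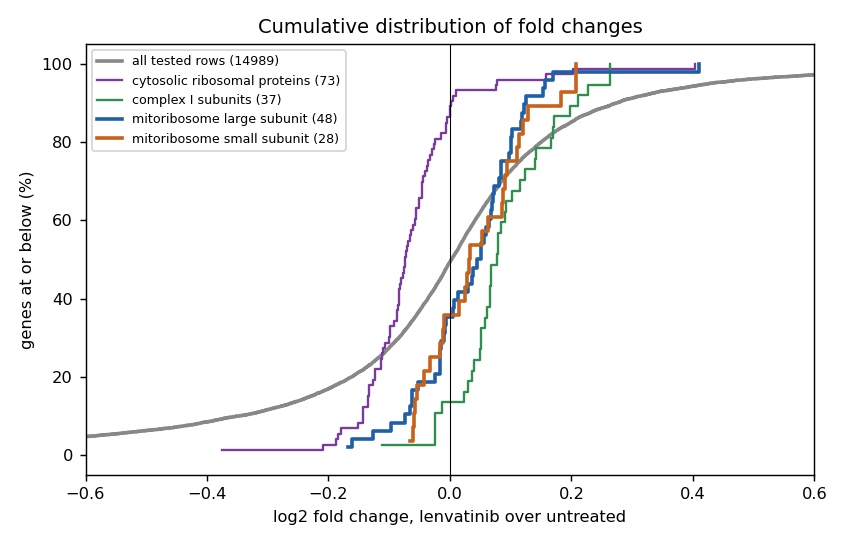
Cumulative share of genes (%) at or below each log2 fold change, lenvatinib over untreated, for the large (48) and small (28) subunit of the mitochondrial ribosome, complex I (37), cytosolic ribosomal proteins (73) and all 14989 tested rows. The curves of the 2 mitochondrial subunits run close together and rise more steeply than that of all rows, whose middle 50% spans -0.12 to 0.11.

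Proteins of the mitochondrial ribosome with other symbols were examined from a list. Of 5 such genes 1 rose (20%, where 28.2% of all tested rows changed). Dap3, a GTP-binding protein of the small subunit, was at 44.0, 42.4 and 44.5 CPM without and at 48.9, 46.4 and 49.9 CPM with lenvatinib, above in every library (0.15 ± 0.05, adjusted p = 0.011). Without the second untreated library the adjusted p was 0.0557, and 0.0782 when the third lenvatinib library was dropped. Chchd1 was at 26.0 ± 0.131 and 23.6 ± 0.347 CPM (-0.14 ± 0.06, adjusted p = 0.0767), and Ptcd3 at 72.7 ± 4.59 and 71.8 ± 1.76 CPM (adjusted p = 0.801).

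Factors that build and run the ribosome were taken from lists as well. The share called was 4.17% for assembly and ribosomal RNA processing and 13.3% for translation factors, against 28.2% of all tested rows. Of 24 genes for assembly and ribosomal RNA processing 1 rose and none fell: Noa1, a GTPase needed for the small subunit, went from 30.2, 28.9 and 27.7 to 33.9, 33.1 and 33.6 CPM, 1.16-fold higher with no overlap (0.21 ± 0.05, adjusted p = 0.0019). Next by p were Mterf3 (0.14, adjusted p = 0.108, and 0.0386 without the third untreated library) and the helicase gene Ddx28 (0.14, adjusted p = 0.133).

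Of 15 translation factors and messenger RNA binding proteins 2 fell and none rose. Mrrf, which splits the ribosome after termination, was at 24.2, 22.4 and 23.4 CPM without and at 20.4, 19.1 and 22.0 CPM with lenvatinib, below in every library (-0.18 ± 0.06, adjusted p = 0.028). Slirp, a partner of Lrpprc in stabilising mitochondrial messenger RNAs, was at 34.8, 29.7 and 35.5 CPM and at 29.5, 30.1 and 30.03 CPM (-0.16 ± 0.06, adjusted p = 0.0365), where the second untreated library lay among the treated ones. Both calls were lost with DESeq2 (adjusted p = 0.0864 for Mrrf and 0.106 for Slirp), and that of Slirp with limma-voom (0.0672). They were also lost without the first untreated library (0.112 and 0.167), the third untreated (0.067 and 0.23), the first lenvatinib (0.0683 and 0.0972) or the second lenvatinib library (0.173 and 0.0725), all adjusted p, and that of Slirp without the third lenvatinib library as well (0.0802). Lrpprc itself was at 85.4 ± 4.33 and 89.3 ± 2.63 CPM (adjusted p = 0.21), and the elongation factor gene Gfm1 at 60.9 ± 1.4 and 65.3 ± 0.359 CPM (adjusted p = 0.0527). Gfm1 passed with upper-quartile factors (adjusted p = 0.036), with no scaling factors (0.0483), without rows wider than their gene (0.0489) and without the first untreated library (0.0434).

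Mitochondrial aminoacyl-tRNA synthetases, which load the transfer RNAs used by the ribosome, are described by Ears2 and Nars2. Ears2, for glutamate, rose from 11.3 ± 0.563 to 13.1 ± 0.482 CPM (0.22 ± 0.08, adjusted p = 0.0437), and Nars2, for asparagine, fell from 30.2 ± 2.43 to 26.6 ± 0.618 CPM (-0.19 ± 0.06, adjusted p = 0.0152). In both genes the groups did not overlap. DESeq2 gave an adjusted p of 0.128 for Ears2 and 0.0524 for Nars2, and the fit with no filter on low counts 0.0625 for Ears2. With 1 library dropped the adjusted p rose to as much as 0.181 for Ears2 and 0.152 for Nars2 (without the third untreated library for both). The RNAs that the ribosome is built around and translates can be read only in part, since 12 of 15 rows of mitochondrial DNA-encoded genes, the ribosomal RNA rows mt-Rnr1 and mt-Rnr2 among them, were at 0 in all 6 libraries. The other rows, mt-Co1, mt-Cytb and mt-Nd6, did not pass (adjusted p = 0.724, 0.629 and 0.493). The deposited feature length of mt-Co1 (8238 bases) and of mt-Cytb (1211 bases) is longer than the span of the gene in the same table (5328 to 6872 and 14145 to 15288), so these rows do not hold the named gene alone.

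The genes share features of position and promoter that the symbol rule did not use. They lie on 17 chromosomes, and 30 of the 76 tested genes (39.5%) have the start of another tested gene on the opposite strand within 1000 bases, against 15.6% of all tested rows, with a median distance of 127 bases. Of these 30 members Mrps7 alone changed, and 5 of the nearest partners did, where 28.2% of all tested rows changed. Mrpl46 and Mrps11 are each other's nearest partner. Mtbp (0.36), Eme1 (0.58) and Wdfy1 (-0.12) were called, beside -0.01 in Mrpl13, -0.02 in Mrpl27 and 0.08 in Mrpl44. The other partners called were Fau and Ndufb5. Mrpl49 starts 59 bases from Fau, a cytosolic ribosomal protein gene that fell by 0.12 (adjusted p = 0.000425), while Mrpl49 had a value of 0.07 (adjusted p = 0.331). Mrpl47 starts 615 bases from Ndufb5, a complex I gene that rose by 0.17 (adjusted p = 0.00131), and Mrpl47 itself had a value of 0.16. These genes share exonic bases on opposite strands (24.2% of those of Mrpl47 in GENCODE M21), so reads from those bases cannot be told apart. Mrps12 starts 172 bases from Sars2, the mitochondrial seryl-tRNA synthetase gene (0.11 and 0.21, adjusted p = 0.302 and 0.219).

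Promoter windows from 250 bases before to 50 after the start were found for 67 of the 76 tested genes, 73 windows in all. The ETS-type motif stood in 34.2% of these windows, against 16.8% of the windows of all tested genes and 8.86% of all windows in the RefSeq table. The YY1 core was in 16.4%, 4.25% and 2.75%, and the NRF1 motif in 17.8%, 9.39% and 4.60%. The GC box was not more frequent than in other tested genes (52.1%, 60.9% and 35.7%), and the median GC content was 58.3% in the members and 60.7% in all tested genes. Between the subunits the ETS-type motif was in 14 of 47 large and 11 of 26 small subunit windows and the NRF1 motif in 10 of 47 and 3 of 26. The stretches printed above show the ETS-type motif both in Mrps26, which rose, and in Mrpl52, which fell. Whether any motif goes with the direction of change was not tested.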

How the data were processed

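RNA from 6 libraries was analysed. The authors deposited raw whole-number read counts per gene, with no normalization; alignment to the reference genome used Hisat2 2.0.1 (per the labels' protocols), and the submitters' processing notes also name HTSeq 0.6.1 and the build mm10, with no roles. Annotation, strand setting and read filters: not given in the sources used here. Deposited positions match GRCm38 for 1 of the 78 genes, so they are printed without a build. The deposited column of feature length (unit other) served for levels per kilobase.

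Columns were matched to samples by name. The test was edgeR 4.0.16 (glmQLFit, robust, then glmQLFTest; R 4.3.3) with TMM factors, filterByExpr (minimum count 10, minimum total 15) and Benjamini-Hochberg adjustment over 14989 rows; the fit was checked on simulated counts. CPM and log2 fold changes were computed from the deposited counts. Counts of replicates differed by more than sampling noise (chi-square per degree of freedom 2.78 to 5.6). DESeq2 1.42.0, limma-voom (limma 3.58.1), other scalings, filters and thresholds, a replicate block and fits without each library were run as alternatives.

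The genes, lists and tests were chosen with earlier results of these data known. Named are all members called, the 3 most abundant per subunit by CPM per kilobase, the least abundant tested, those not tested, Mrps18a to Mrps18c, Mrps30, Mrps36, the stalk, and up to 3 genes per list with the smallest p, plus those that fell where there were 5 or fewer; others were chosen after their values were seen. Exon overlap came from GENCODE M21, promoters from RefSeq (GRCm38.p6). Results for some listed genes are not reported here.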

Additional observations from a re-analysis of the deposited data

How the results depend on the processing

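Precision is limited by depth (215 to 2196 counts per library in the tested members other than Mrpl46) and by 3 libraries per group. The numbers of members called are small, and calls moved with the setting. Against 6 higher and 1 lower, DESeq2 gave 3 higher (1 large and 2 small subunit genes) and 1 lower. A threshold of 0.01 gave 3 higher (1 large, 2 small) and 0 lower. Within the large subunit alone, limma-voom and the fit with no robust estimation each gave 1 gene higher, against 2 in the main fit. Upper-quartile factors gave 8 higher (3 large, 5 small) and 1 lower, with Mrpl47 and Mrps21 added. Over all rows they gave 2143 higher and 2133 lower, against 1999 and 2229 in the main fit. Leaving out each library in turn gave 3 to 9 members higher and 0 to 1 lower, that is 1 to 5 large and 1 to 5 small subunit genes higher and 0 to 1 large subunit genes lower. Over all rows the fits without 1 library gave 1716 to 1795 higher and 1902 to 2045 lower. Without the third untreated library 3 were higher and 0 lower (1 small subunit gene higher), and without the third lenvatinib library 3 were higher (1 large and 2 small). Without the first untreated library 5 large subunit genes were higher and without the second 1, and without the first lenvatinib library 2 small subunit genes were higher. The cause of these moves was not tested. In these fits the median log2 fold change ran from 0.031 to 0.050 in the large and from 0.022 to 0.049 in the small subunit. Mrpl42, Mrps34 and Noa1 passed under each of the 17 alternatives run for single genes. Directions turned when a library was left out only in genes that were not called: Mrps18a (-0.050 to 0.015), Ptcd3 (-0.062 to 0.026), Mrpl10 (-0.026 to 0.025), Mrpl2 (-0.017 to 0.054), Mrps30 (-0.019 to 0.084) and Mrps18c (-0.110 to 0.096). Same-numbered libraries did not deviate together (correlations 0.02, -0.08 and -0.004 over 10002 genes), and pairs with different numbers gave -0.06 to 0.06. These values cannot show whether same-numbered libraries were handled together. The fit with the replicate block called 1952 rows higher and 2182 lower, against 1999 and 2229 without it. It called 6 members higher and 1 lower, as without it. Among the genes named, the block ended the call of Ears2 alone (adjusted p = 0.0507 with edgeR).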
